A study of Mus musculus with 9 samples.

Results

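The hippocampus of mice whose tibia had been fractured in an operation was compared with the hippocampus of control mice, gene by gene, on Affymetrix mouse gene arrays. The comparison used 6 of the 9 arrays of the series, the 3 titled as surgery and the 3 titled as control mouse, and covered 18820 genes. All mice were C57BL/6 and 12 to 14 weeks old, tissue of the operated mice was taken 72 h after the fracture, and 6 µg of total RNA was labelled for each array. The titles call the arrays of a group biological replicates. The labels describe neither a sham operation nor anaesthesia for the controls, so the fracture, the anaesthetic and the handling around them cannot be told apart here. The other 3 arrays, from mice given the lipid mediator Maresin 1 before the operation, entered only the normalization and the estimate of the spread.

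Tibia fracture in mice is a model of the decline in memory that can follow orthopaedic surgery. Injury outside the brain releases danger signals and cytokines into the blood, and the cells that meet them earliest are those of the brain's vessels, namely the endothelium, which forms the blood-brain barrier, and the pericytes and smooth muscle that wrap it. Endothelium, microglia and astrocytes can then pass the signal on through cytokine receptors, nuclear factor kappa B (NF-kB), a transcription factor of inflammation, and interferons, which switch on antiviral genes. The choroid plexus, the tissue that secretes cerebrospinal fluid into the ventricles next to the hippocampus, can come along in dissection.

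Levels are given as log2(signal + 16) after quantile normalization, and a difference is the mean of the surgery arrays minus the mean of the control arrays on that scale, so that 1 stands for a doubling of a bright gene and differences of dim genes are understated. Genes were tested with limma, a linear model fitted over all genes, and those with a Benjamini-Hochberg adjusted p under 0.05 count as called. In that test 0 genes were called, 0% of those tested, and the smallest adjusted p was 0.191. At an unadjusted p under 0.05 stood 734 higher genes, 3.9% of all, and 434 lower ones, 2.31%. Groups are called apart where all 3 surgery arrays lay on one side of all 3 control arrays: 1451 genes, 7.71%, were apart and higher, and 718, 3.82%, apart and lower. The median difference over all genes was 0.02, with 58.4% of genes higher after surgery, and the median SE of a difference was 0.0932. Counts of list members below are to be read against these shares. With 3 arrays against 3 an exact permutation test of a single value cannot go under p = 0.1.

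The tissue carried the markers of its label. All 13 measured genes of the dentate granule neuron list, all 9 of the CA1 list and all 11 of the CA2 and CA3 list lay above 5.86, the 95th percentile over 990 genes of olfactory receptors, which belong to the nose and served as a guide to background. The controls were not alike, though. Over the 20 measured genes of the choroid plexus epithelium list, the score of an array, the mean distance of its genes from their mean over all 9 arrays, was -0.83 in control replicate 1, 2.28 in control replicate 2 and 2.61 in control replicate 3. After surgery the scores ran from -0.73 to -0.63. Slc4a5, a sodium bicarbonate cotransporter of the plexus epithelium, stood at 5.24, 11.33 and 11.70 in the controls and at 5.29, 5.14 and 5.04 after surgery. Ttr, which encodes transthyretin, a carrier of thyroid hormone, stood at 7.55, 12.54 and 12.71 in the controls and at 6.66, 6.19 and 7.70 after surgery. Both genes were thus at the surgery level in control replicate 1 and far above it in the other two controls. Tmem72, a transmembrane protein, was the only gene of the list with the groups apart, and it was at 5.43 both in control replicate 1 and in surgery replicate 1.

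All 20 choroid plexus genes were lower after surgery, by a median of 1.85, yet against control replicate 1 alone 15 of the 20 were higher and the median difference was 0.10. Against control replicates 2 and 3 it was -2.86. The summed signal of the list ran from 2148.8 to 27106.4 in the controls and from 2396.1 to 2534.4 after surgery. Control replicate 1 stood apart in other lists too. Its dentate granule score was -0.31, against 0.10 and 0.01 in the other controls and -0.13 to -0.03 after surgery. Its ependymal score was -0.39, against 0.26 and 0.27 in the other controls. In the nuclear long noncoding RNA list control replicate 3 was the odd one, at -0.28 against 0.32 and 0.24 in control replicates 1 and 2. Many results below are therefore also given against control replicate 1 alone or with 1 array left out. Of all genes, 60.4% were higher against control replicate 1 alone and 53.9% against control replicates 2 and 3. With each array left out in turn, the median difference stayed within 1.5 times of its value in 6 of the 59 gene lists and kept its sign in 38. The 6 were endothelium, barrier junctions and carriers, angiogenic signalling, interferon response, cytokine receptors and signalling, and the circadian clock. Some lists share genes and are not independent. Endothelium shares Flt1, Kdr, Tek and Tie1 with angiogenic signalling, and Cldn5, Ocln, Abcb1a, Slco1a4, Slc2a1 and Mfsd2a with the barrier list. Osmr, Stat3 and Il4ra count in both the cytokine receptor and the reactive astrocyte lists. In tissue homogenates such as these, fewer cells of a type and less RNA per cell cannot be told apart.

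**Figure D1:**
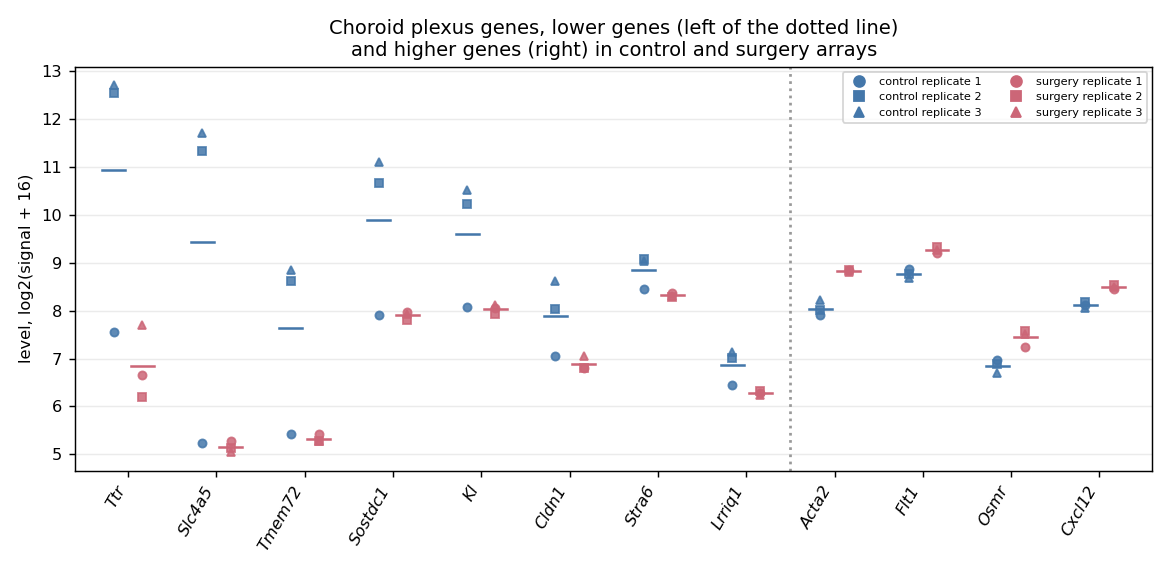
Level of 12 genes, as log2(signal + 16) on the vertical axis, in each control (blue) and surgery (red) array, with the shape of a point marking the replicate and a short line the group mean. From Ttr to Kl, control replicates 2 and 3 lie far above control replicate 1, which sits at the surgery level. The same order holds in smaller steps for Cldn1, Stra6 and Lrriq1. Acta2, Flt1, Osmr and Cxcl12 were named by a rule that asks for the groups apart, with all 3 controls below all 3 surgery arrays.

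Genes of the vessel wall were among those with the smallest p. Acta2, the smooth muscle actin that lets small arteries contract, stood at 7.91, 8.01 and 8.21 in the controls and at 8.84, 8.85 and 8.81 after surgery. The surgery arrays were close together and the lowest of them was well above the highest control (difference 0.79, SE 0.12, limma adjusted p = 0.261). Myh11, the smooth muscle myosin heavy chain, stood at 6.19, 5.99 and 6.38 in the controls and at 6.69, 6.66 and 6.70 after surgery. Myl9, a myosin light chain of the same contractile apparatus, stood at 8.28, 8.05 and 8.23 and then at 8.55, 8.67 and 8.55. In these genes too the groups were apart, and control replicate 1 was not the lowest control. Rgs5, a regulator of G protein signalling found in pericytes, was at 9.13, 8.94 and 8.83 in the controls and 9.31, 9.24 and 9.30 after surgery, with a difference of 0.15 against control replicate 1 alone.

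Of the 18 pericyte and smooth muscle genes measured, all 18 were higher after surgery, with a median difference of 0.21 against 0.02 over all genes, and 8 were apart and higher: Acta2, Myh11, Tagln, Myl9, Rgs5, Kcnj8, Vtn and Tpm2. None was apart and lower. Without surgery replicate 2, 17 of the 18 were higher. Against control replicate 1 alone 16 of the 18 were higher by a median of 0.20, and against control replicates 2 and 3, 15 of the 18 by 0.22. Without control replicate 2 the median was 0.12. It was 0.23 when arrays were scaled to a common median, under which the median of all genes was 0.10. On the deposited signals as they stand it was 0.12, and that of all genes was -0.02. Scores were -0.13, -0.21 and -0.04 in the controls and 0.11, 0.13 and 0.09 after surgery, so that the groups were apart. The meningeal and vascular fibroblast list, whose cells line the outer sheath of larger vessels, held 13 higher genes of 16, none with the groups apart, at a median of 0.04, of 0.01 without control replicate 1 and 0.10 without control replicate 3, and of -0.03 on the deposited signals as they stand.

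Contractile genes of smooth muscle are known targets of serum response factor, which binds the CArG box. Among the 14 genes of this list with a promoter in the RefSeq table, 1, Myl9, held a CArG box in the 250 bases before its start on either strand, against 1.62% of the 27025 genes of the table. The stretch is shown because it lies in front of one of the genes with the groups apart. It covers chr2:156775291-156775324 (GRCm38.p6, plus strand), 173 to 140 bases before the start, with the box in capitals.
Myl9: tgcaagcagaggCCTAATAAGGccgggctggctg
A match describes the letters only, and genes without one in this window may carry the box elsewhere.

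Of the 59 lists, endothelium had the largest share of genes with the groups apart and higher. Flt1, a receptor for vascular endothelial growth factor and placental growth factor, stood at 8.87, 8.77 and 8.67 in the controls and at 9.20, 9.33 and 9.27 after surgery (difference 0.49, SE 0.10, limma adjusted p = 0.441). Tek, the receptor for angiopoietins that steadies resting vessels, stood at 7.27, 7.01 and 7.15 in the controls and at 7.51, 7.49 and 7.59 after surgery. Acvrl1, an endothelial receptor for bone morphogenetic proteins, stood at 6.98, 6.88 and 7.13 and then at 7.40, 7.47 and 7.56. Every surgery array lay above every control array in these 3 receptor genes. Pecam1, an adhesion molecule of endothelial junctions, stood at 7.54, 7.27 and 7.34 in the controls and at 7.79, 7.86 and 7.90 after surgery. Cdh5, the cadherin of those junctions, stood at 7.78, 7.77 and 7.62 and then at 8.02, 8.02 and 8.21.

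Adgrl4, an adhesion G protein-coupled receptor of endothelium, stood at 8.53, 8.37 and 8.12 in the controls and at 8.78, 9.05 and 8.96 after surgery (difference 0.59, SE 0.11, limma adjusted p = 0.424), and its difference was 0.40 against control replicate 1 alone. Robo4, an endothelial guidance receptor linked to barrier stability, was the most even of the set, at 6.70, 6.65 and 6.69 in the controls and 7.15, 7.17 and 7.15 after surgery. She, an adaptor protein with an SH2 domain, stood at 6.47, 6.33 and 6.42 and then at 6.84, 6.86 and 6.93. Vwf, the von Willebrand factor of the endothelial storage granules, was less even: at 7.35, 8.14 and 7.27 after surgery it was highest in surgery replicate 2, and the other two arrays were barely above the highest control, 7.20. Its difference of 0.55 was 0.28 without that array. Cldn5, the main claudin of the tight junctions, stood at 8.61, 8.83 and 8.60 in the controls and at 9.22, 9.02 and 8.73 after surgery, so that the groups overlapped (difference 0.31, SE 0.15).

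In all, 22 of the 23 endothelial genes measured were higher after surgery, with a median difference of 0.31, and 14 were apart and higher: besides Flt1, Tek, Pecam1, Cdh5, Adgrl4, Robo4 and Vwf these were Tie1, Eng, Esam, Abcb1a, Slco1a4, Adgrf5 and Podxl. An unadjusted p under 0.05 was reached by 15. Scores were -0.17, -0.19 and -0.20 in the controls and 0.10, 0.16 and 0.12 after surgery. The choroid plexus scores of the same 3 controls ran from -0.83 to 2.61. A link of the endothelial to the choroid plexus score was not tested. The neutrophil and red cell score was apart as well, at -0.09 to -0.02 in the controls and 0.03 to 0.18 after surgery, and its part in the endothelial values was not tested. Against control replicate 1 alone 23 of 23 were higher by a median of 0.30, against control replicates 2 and 3, 21 of 23 by 0.33, and without surgery replicate 2, 22 of 23 by 0.31. The median stayed positive under each scaling tried. It was 0.45 when arrays were scaled to a common median, against 0.10 over all genes. On the deposited signals it was 0.33, against -0.02 over all genes.

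**Figure D2:**
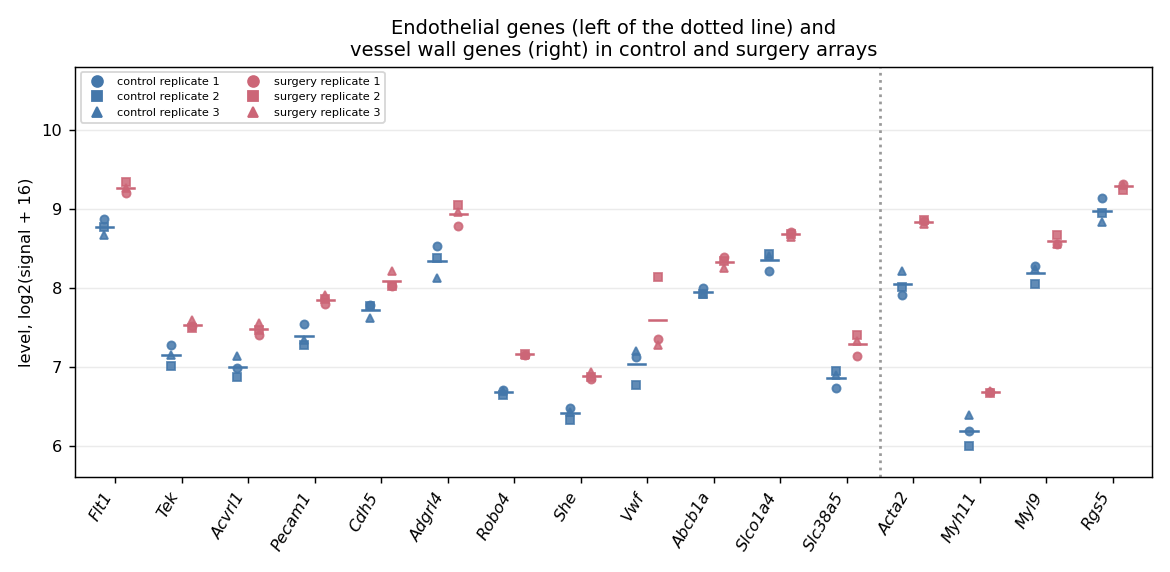
Level of 12 genes of endothelium and its carriers and 4 vessel wall genes, as log2(signal + 16) on the vertical axis, in each control (blue) and surgery (red) array, with the shape of a point marking the replicate and a short line the group mean. All 16 genes shown are ones with the groups apart and higher, so the 3 surgery arrays lie above the 3 control arrays in each. In the full lists 14 of 23 endothelial genes and 8 of 18 pericyte and smooth muscle genes were apart and higher. Surgery replicate 2 stands out most in Vwf, at 8.14.

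Carriers of the blood-brain barrier were higher by a smaller margin. Slc38a5, a glutamine carrier, stood at 6.73, 6.94 and 6.89 in the controls and at 7.13, 7.41 and 7.32 after surgery. Slc16a1, which carries lactate and ketone bodies, stood at 9.26, 9.17 and 9.29 and then at 9.49, 9.63 and 9.46. Slc7a5 and Slc3a2, the light and heavy chain of the large amino acid carrier, differed by 0.17 and 0.16, each with the groups apart. Among the efflux pumps, Abcb1a, the P-glycoprotein that returns drugs to the blood, stood at 8.002, 7.92 and 7.92 in the controls and at 8.39, 8.34 and 8.25 after surgery, and Abcg2 differed by 0.24. Slco1a4, a carrier of organic anions, differed by 0.33, and the glucose carrier Slc2a1 by 0.24, with its surgery arrays at 10.97, 11.18 and 11.14 and the highest control at 10.97.

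Of the 27 junction and carrier genes measured, 22 were higher by a median of 0.12. The groups were apart and higher in 8 and apart and lower in 1, Cgn, which encodes the junction protein cingulin. Against control replicate 1 alone 24 of the 27 were higher by a median of 0.24, and against control replicates 2 and 3, 18 of the 27 by 0.12. In the latter comparison 29.6% were apart and higher and 18.5% apart and lower, against 14.3% and 11.6% of all genes. The ligands and receptors of vessel growth showed 18 higher genes of 24, at a median of 0.10, with 8 apart and higher: Pgf, Flt1, Flt4, Angpt1, Tek, Tie1, Hey1 and Pdgfb. Vegfa itself, the main growth factor of vessels, differed by less than 0.01 (SE 0.10), at 8.88, 9.09 and 8.89 in the controls and 8.91, 9.19 and 8.75 after surgery. Pgf, the placental growth factor that binds Flt1, was dimmer and differed by 0.23, and Pdgfb, the signal by which endothelium recruits pericytes, by 0.21. Flt4 lay below the olfactory receptor level, so its difference of 0.35 rests on a dim signal. Thbd, the thrombin receptor thrombomodulin that curbs clotting, differed by 0.38, and the groups were apart in 4 of the 21 genes of endothelial activation and leukocyte adhesion, Selp, Itgb2, Vwf and Thbd, at a list median of 0.09, and of 0.16 without surgery replicate 1. In the basement membrane list, 5 of 25 were apart and higher, among them the integrins Itga1 (0.30) and Itga6 (0.26), at a list median of 0.01, and of 0.05 without control replicate 3.

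**Figure D3:**
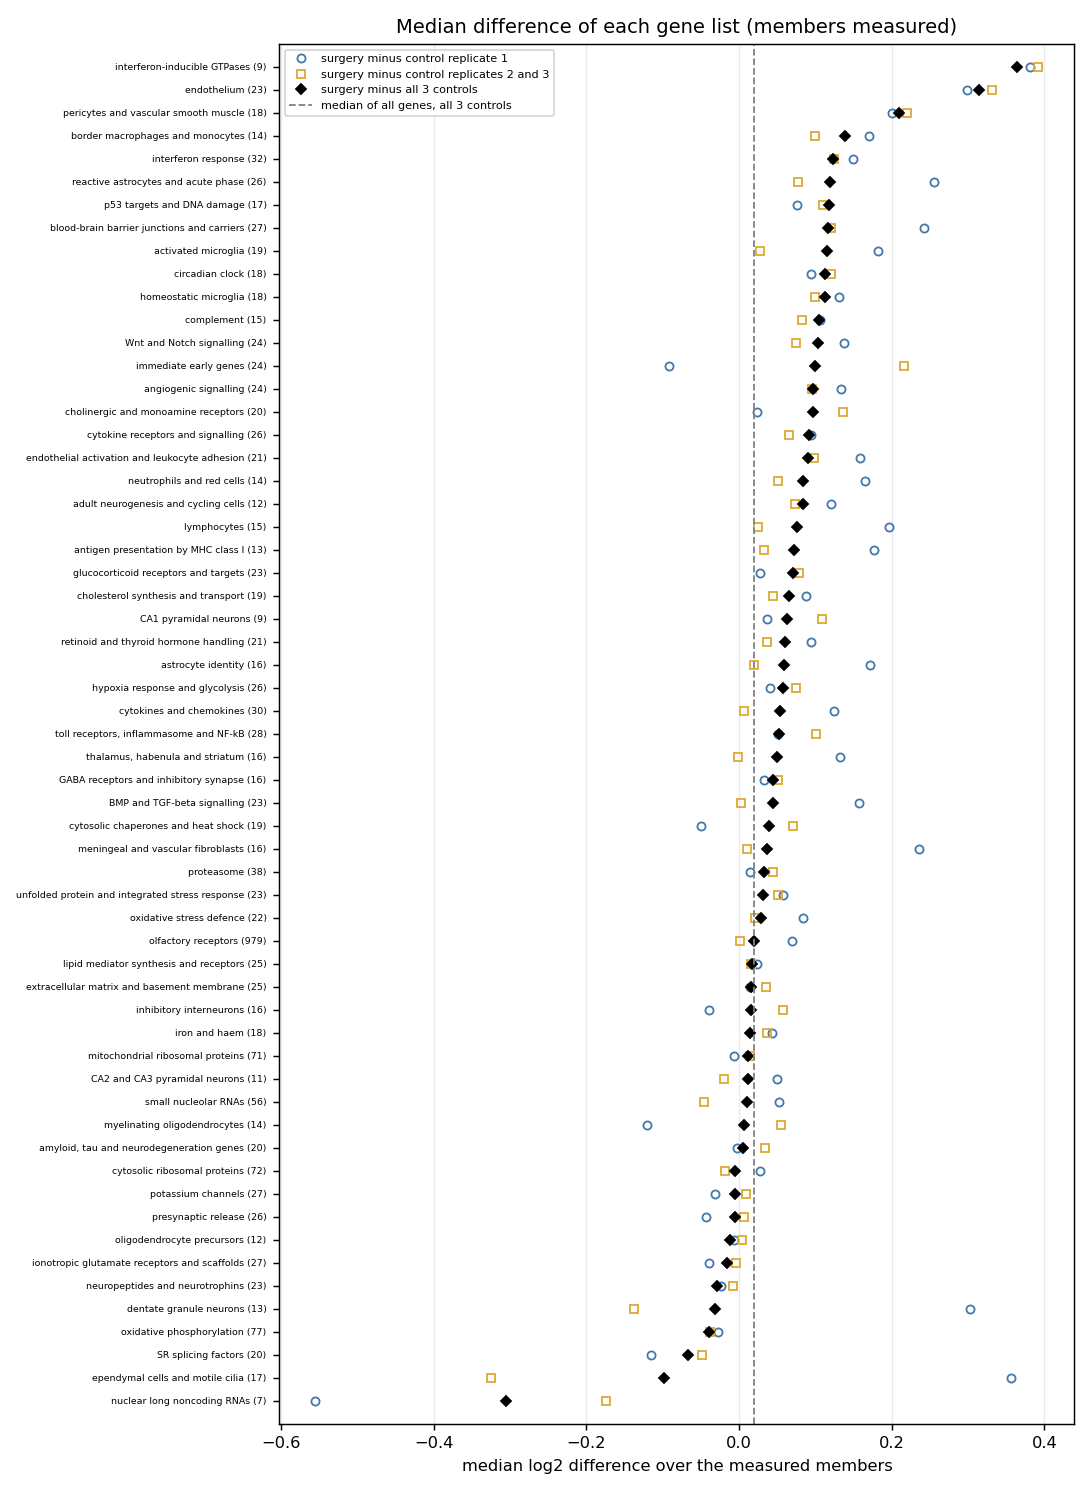
Median log2 difference (horizontal axis) of each gene list with 5 or more measured members, the number measured in brackets, for surgery against all 3 controls (black diamonds), control replicate 1 alone (blue circles) and control replicates 2 and 3 (yellow squares); the choroid plexus list is left out. The interferon-inducible GTPases (0.36), endothelium (0.31) and pericytes and smooth muscle (0.21) lie furthest to the right for surgery against all controls, with all 3 symbols close together, while the ependymal, dentate and nuclear noncoding RNA lists change place with the choice of controls.

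Several interferon-stimulated genes were apart and higher. Ifit3, which binds viral RNA complexes and curbs translation, stood at 7.09, 7.29 and 7.25 in the controls and at 7.72, 7.75 and 7.62 after surgery (difference 0.48, SE 0.10, limma adjusted p = 0.483). Its near-identical neighbour Ifit3b had the smallest p of all genes, at 5.51, 5.38 and 5.57 in the controls and 6.19, 6.19 and 6.08 after surgery (difference 0.67, SE 0.09, limma adjusted p = 0.191). The mean of Ifit3b lay below the olfactory receptor level, and the probes of such close copies may share signal, so the 2 genes may not be independent. Rsad2, the antiviral enzyme viperin, stood at 6.01, 5.88 and 5.97 in the controls and at 6.33, 6.62 and 6.22 after surgery. Oasl2, of the oligoadenylate synthetase family that senses double-stranded RNA, stood at 7.33, 7.29 and 7.10 and then at 7.52, 7.91 and 7.50. In both of these surgery replicate 2 was the highest array. Irf7, the transcription factor that widens the interferon response, was dim and differed by 0.32, and Trim30a, a ubiquitin ligase, by 0.30. Ifi27 went the other way: it was at 8.30 in control replicate 1, 8.68 and 8.77 in the other controls and 8.21 to 8.28 after surgery, which leaves a difference of -0.07 against control replicate 1.

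The interferon-inducible GTPases, which include the guanylate-binding proteins and act against intracellular microbes, had the highest list median after quantile normalization, 0.36 against 0.31 for endothelium. The order of the lists turned without surgery replicate 2, at 0.16 against 0.31, when arrays were scaled to a common median, at 0.40 against 0.45, and on the deposited signals, at 0.28 against 0.33. Gbp2 stood at 6.00, 5.94 and 6.10 in the controls and at 6.49, 7.49 and 6.39 after surgery (difference 0.77, SE 0.22, limma adjusted p = 0.64). Gbp7 stood at 6.65, 6.78 and 6.77 in the controls and at 6.999, 7.43 and 7.06 after surgery. Gbp3 stood at 6.34, 6.43 and 6.44 and then at 6.47, 7.20 and 6.60. Surgery replicate 2 was the highest array in all of these, though the other two surgery arrays also lay above the controls. Without it the difference of Gbp2 was 0.43, that of Gbp3 0.13 in place of 0.35, and that of Gbp7 0.30. All 9 measured members were higher, with 4 apart and higher (Gbp2, Gbp3, Gbp7 and the dim Iigp1). The surgery scores were -0.09, 0.69 and 0.00 against -0.20 to -0.27 in the controls. Without surgery replicate 2 the 9 genes were still higher, by a median of 0.16. Over the wider interferon response list, 26 of 32 were higher at a median of 0.12, with 7 apart and higher and Ifi27 apart and lower. Without surgery replicate 2 the median was 0.10, and against control replicate 1 alone 0.15. It was 0.15 when arrays were scaled to a common median, against 0.10 over all genes. On the deposited signals it was 0.04, against -0.02 over all genes. Of 13 genes of antigen presentation by MHC class I, 10 were higher at a median of 0.07, but 7 at 0.03 against control replicates 2 and 3, 8 at 0.02 without surgery replicate 2, and 11 at 0.18 against control replicate 1 alone. The immunoproteasome subunits Psmb8 and Psmb10 were the ones apart, by 0.21 and 0.22.

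Interferon acts on these genes through the interferon-stimulated response element. Its core was searched as GAAANNGAA on both strands in the 250 bases before each RefSeq start, where overlapping matches were merged in print. It was found in 13 of the 24 interferon response genes and 5 of the 5 GTPases with a promoter in the table, against 8.18% of all 27025 genes. Of the 7 interferon response genes that were apart and higher, 4 held it. The gamma-activated site, searched as TTCNNNGAA on both strands, was found in 3 of the 24 and 2 of the 5, against 8.13% of all. The stretches of 3 genes with the groups apart are shown, all from the plus strand of GRCm38.p6 and with the core in capitals: chr19:34583362-34583447, 167 to 82 bases before the start of Ifit3, chr3:142620593-142620625, 70 to 38 before Gbp2, and chr3:142530272-142530304, 64 to 32 before Gbp7.
Ifit3: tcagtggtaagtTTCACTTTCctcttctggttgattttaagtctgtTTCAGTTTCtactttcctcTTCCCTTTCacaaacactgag
Gbp2: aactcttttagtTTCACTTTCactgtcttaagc
Gbp7: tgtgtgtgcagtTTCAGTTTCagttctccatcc
Ifit3 carried 3 copies of the core and Gbp2 and Gbp7 carried 1 each. A match describes the letters of the promoter and adds no measurement to the arrays.

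The classical cytokines of acute inflammation lay near background. Il6 stood at 4.56, 4.57 and 4.62 in the controls and at 4.93, 4.61 and 4.62 after surgery. Tnf stood at 4.89, 5.01 and 5.01 and then at 5.37, 4.97 and 4.90, and Il1b at 5.19, 5.08 and 5.39 and then at 5.24, 5.38 and 5.18. All 3 lay below the olfactory receptor level in every array, so a change at low abundance was not detectable here. Ccl2, a chemokine that draws monocytes, differed by -0.25 (SE 0.14), and by 0.03 against control replicate 1 alone. Cxcl12, a chemokine of vessel wall and meninges that guides CXCR4-bearing cells, was the clearest member, at 8.11, 8.19 and 8.05 in the controls and 8.44, 8.53 and 8.49 after surgery (difference 0.37, SE 0.07, limma adjusted p = 0.424). Tnfsf10, the death ligand TRAIL, stood at 5.97, 6.81 and 6.09 after surgery, against at most 5.95 in the controls, and its difference of 0.46 was 0.20 without surgery replicate 2. Tgfb1 and Tgfb3, ligands that restrain inflammation, differed by 0.26 and 0.22. Of 30 cytokine and chemokine genes 23 were higher at a median of 0.05, 6 of them with the groups apart, and the median was -0.04 on the deposited signals as they stand. Against control replicates 2 and 3, 17 of the 30 were higher at a median of 0.01, and against control replicate 1 alone 26 at 0.12.

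Receptors and inhibitors of these pathways were also among the genes with the groups apart. Osmr, the receptor chain for oncostatin M on astrocytes and endothelium, stood at 6.96, 6.89 and 6.71 in the controls and at 7.23, 7.58 and 7.52 after surgery (difference 0.59, SE 0.11, limma adjusted p = 0.424). Tnfrsf1b, a receptor for tumour necrosis factor, stood at 6.54, 6.29 and 6.65 and then at 6.73, 6.97 and 6.74. Il4ra, a receptor chain for interleukin-4, differed by 0.26, and Ifngr1, a chain of the interferon gamma receptor, by 0.16. Of the 26 receptor and signalling genes measured, 21 were higher at a median of 0.09, and 7 were apart and higher: Il6ra, Osmr, Tnfrsf1b, Ifngr1, Ifnar1, Il4ra and Stat3. None was apart and lower. Tnfaip3, the A20 enzyme that NF-kB induces and that shuts NF-kB down, stood at 6.83, 6.59 and 6.82 in the controls and at 7.14, 7.20 and 7.27 after surgery (difference 0.46, SE 0.09, limma adjusted p = 0.47). In the list of toll receptors, inflammasome and NF-kB, 20 of 28 were higher at a median of 0.05, of 0.10 without control replicate 1, and of -0.01 on the deposited signals. The groups were apart and higher in 5 (Tlr2, Tlr7, Casp1, Tnfaip3 and Bcl3) and apart and lower in 1, Rela. Tlr7, which senses single-stranded RNA, differed by 0.32, and by 0.15 against control replicate 1 alone, while Tlr2 and Casp1, at 0.23 and 0.36, lay below the olfactory receptor level.

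**Figure D4:**
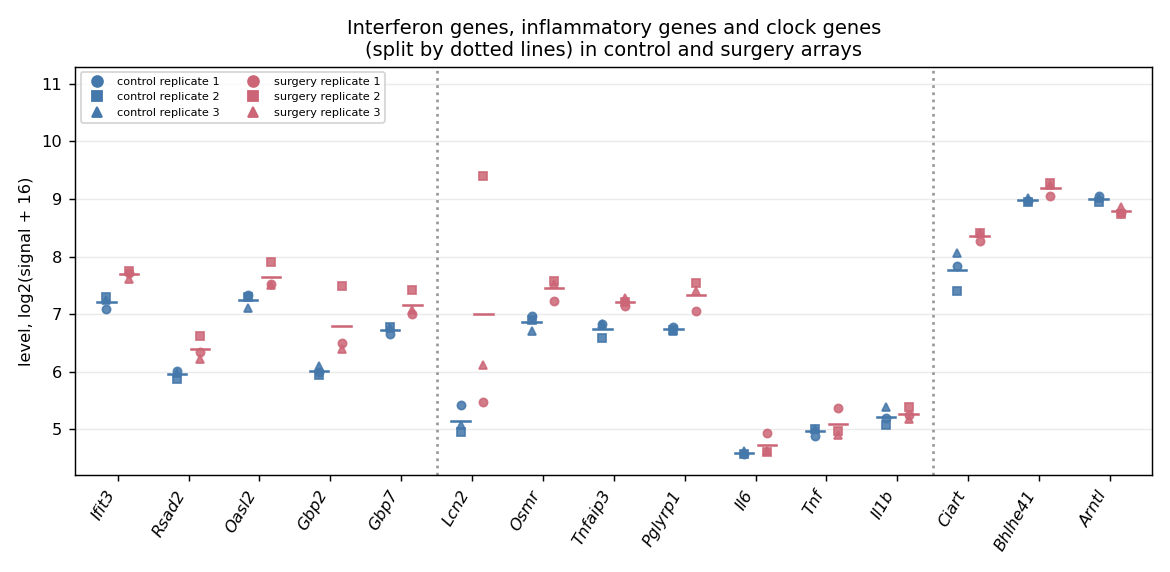
Level of 5 interferon genes, 7 inflammatory genes and 3 clock genes, as log2(signal + 16) on the vertical axis, in each control (blue) and surgery (red) array, with the shape of a point marking the replicate and a short line the group mean. Lcn2 and Gbp2 are spread by surgery replicate 2, Il6, Tnf and Il1b overlap between the groups near background, and Arntl is the gene with the surgery arrays below the controls.

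Acute phase genes varied among the operated mice. Lcn2, lipocalin 2, which binds bacterial iron carriers and is made by reactive astrocytes, endothelium and neutrophils, stood at 5.42, 4.95 and 5.08 in the controls and at 5.48, 9.40 and 6.12 after surgery. The difference of 1.85 (SE 0.80) was the largest among the genes with the groups apart and higher, and it rested on surgery replicate 2, without which it was 0.65. Pglyrp1, a peptidoglycan-binding protein of innate immunity, stood at 6.78, 6.73 and 6.71 in the controls and at 7.05, 7.54 and 7.41 after surgery. Alas2, the haem synthesis enzyme of red cell precursors, stood at 6.50, 6.29 and 6.26 and then at 6.93, 7.93 and 7.04. Surgery replicate 2 was again the highest in both. Of the 14 neutrophil and red cell genes measured, 11 were higher at a median of 0.08, of 0.05 without control replicate 1 and 0.13 without control replicate 3, and of -0.01 on the deposited signals, 4 with the groups apart (Cxcr2, Alas2, Slc4a1 and Epb42), and the summed signal was 361.4 to 376.6 in the controls and 417.5 to 582.2 after surgery. Only 2 of the 14 lay above the olfactory receptor level. The part of blood left in the vessels in the values of Lcn2, Pglyrp1 and Alas2 was not tested.

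The usual markers of glial reaction overlapped between the groups or differed by about their SE. Gfap, the intermediate filament of astrocytes, stood at 10.75, 10.92 and 10.94 in the controls and at 11.04, 10.91 and 10.97 after surgery, so that the groups overlapped. Aif1, which encodes the microglial protein IBA1, differed by 0.08 (SE 0.10), and Cd68, of microglial lysosomes, by 0.08 (SE 0.10). Itgam, the CD11b chain of the complement receptor, was apart and an exception, at 7.83, 7.72 and 7.94 and then at 8.002, 8.25 and 8.11. Of the 26 reactive astrocyte and acute phase genes, 22 were higher at a median of 0.12, and 6 were apart and higher (Lcn2, Osmr, Stat3, S100a6, Fkbp5 and Il4ra), with Ptx3 apart and lower. That median was 0.08 without control replicate 1 and 0.26 against it alone. Homeostatic microglial genes were higher in 16 of 18 at a median of 0.11 and activated microglial genes in 17 of 19 at 0.12, each with 2 genes apart. Without surgery replicate 2 those medians were 0.05 and 0.07. Against control replicates 2 and 3 they were 0.10 and 0.03, the latter with 13 of 19 higher, and against control replicate 1 alone 0.13 and 0.18. Border macrophages, which sit along vessels and in the meninges, showed 12 higher genes of 14 and 4 apart, among them the mannose receptor Mrc1 (5.70, 5.75 and 6.07 in the controls and 6.09, 6.32 and 6.23 after surgery) and Cbr2 (difference 0.34). Their median was 0.14, and 0.08 without surgery replicate 2. Only 4 of those 14 lay above the olfactory receptor level. Lymphocyte genes were higher in 13 of 15, with 2 apart and higher and 1 apart and lower, and the median of 0.08 was -0.02 on the deposited signals. Against control replicates 2 and 3, 9 of the 15 were higher at a median of 0.03, and against control replicate 1 alone 13 at 0.20.

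Clock genes differed in both directions. Ciart, a repressor that closes the circadian feedback loop, stood at 7.83, 7.41 and 8.06 in the controls and at 8.27, 8.41 and 8.41 after surgery (difference 0.60, SE 0.13, limma adjusted p = 0.527). Arntl, which encodes BMAL1, the activator whose output the repressors oppose, was lower, at 9.04, 8.95 and 9.01 in the controls and 8.75, 8.75 and 8.86 after surgery (difference -0.22, SE 0.06, limma adjusted p = 0.64). Further repressors of that loop were apart and higher as well: Bhlhe41 by 0.22, Cry1 by 0.23, Cry2 by 0.14 and Nr1d2 by 0.13. Thus these 5 repressor genes were higher and the activator lower, in arrays whose hour of tissue collection the labels do not give. Per2 differed by 0.29 with overlap, and Per1 by 0.17 and by -0.13 against control replicate 1 alone. Of 18 clock genes 14 were higher at a median of 0.11. BMAL1 and its partner bind the E-box CACGTG, which lay within 250 bases before the start, on either strand, in 5 of the 15 clock genes with a promoter in the table (Per1, Cry1, Tef, Ciart and Bhlhe41), against 6.86% of all genes. The stretch of Ciart is shown for its 3 copies, in capitals, 128 to 27 bases before the start at chr3:95882255-95882356 (GRCm38.p6, minus strand).
Ciart: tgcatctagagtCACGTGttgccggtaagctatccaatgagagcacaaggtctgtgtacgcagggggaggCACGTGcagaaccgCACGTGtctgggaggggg
The other clock genes with a match carried 1 copy in a promoter.

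Genes of stress hormones and damage gave small differences. Fkbp5, a chaperone that glucocorticoids induce and that limits their receptor, stood at 8.42, 8.10 and 8.30 in the controls and at 8.47, 8.63 and 8.53 after surgery, which was 0.12 above control replicate 1. Nr3c1, the glucocorticoid receptor, differed by 0.10 (SE 0.07). Sgk1, another glucocorticoid target, was lower, at 9.58, 9.29 and 9.28 and then at 9.12, 9.26 and 9.27. Of 23 genes of this list 15 were higher at a median of 0.07, and of 0.04 without surgery replicate 2, with Fkbp5, Ddit4 and Errfi1 apart and higher and Sgk1 apart and lower, so its targets did not go one way. Sesn1, a sestrin that p53 induces and that restrains growth signalling, stood at 9.32, 9.34 and 9.41 in the controls and at 9.53, 9.68 and 9.72 after surgery (difference 0.28, SE 0.06, limma adjusted p = 0.487). Of 17 p53 targets and DNA damage genes 15 were higher at a median of 0.12, with Sesn1, Sesn2, Trp53inp1 and Polk apart. That median was 0.03 without control replicate 2, 0.07 without surgery replicate 3 and 0.05 on the deposited signals. Klf4 (0.37), Gadd45b (0.29) and Ier5 (0.26) were the 3 immediate early genes apart and higher. Fos, the usual marker of recent neuronal activity, ranged from 6.57 to 7.64 in the controls and from 6.83 to 7.52 after surgery (difference -0.04, SE 0.27). The immediate early list had a median of 0.10, but of -0.05 without surgery replicate 3, -0.09 against control replicate 1 alone and 0.22 against control replicates 2 and 3. Hmox1, a haem oxygenase of oxidative stress, differed by 0.11 (SE 0.14).

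Glutamate receptor and presynaptic lists had medians near 0 after quantile normalization. Snap25, of the synaptic vesicle fusion machinery, differed by -0.01 (SE 0.03), at 12.65, 12.62 and 12.63 in the controls and 12.65, 12.60 and 12.63 after surgery. Gad1, which makes GABA, differed by 0.08 (SE 0.08), and the neurotrophin gene Bdnf by -0.03 (SE 0.10). Of 27 glutamate receptor and scaffold genes 12 were higher, with 1, Grin3a, apart. Of 26 presynaptic genes 10 were higher, and Bsn and Pclo, the scaffold proteins bassoon and piccolo of the active zone, were apart and lower by 0.11 and 0.12, although when arrays were scaled to a common median they differed by 0.04 and 0.02. List medians were -0.02 and -0.01, and 0.13 and 0.13 with that scaling, under which the median of all genes was 0.10. Chrm4, an inhibitory muscarinic acetylcholine receptor, was apart and higher, at 8.56, 8.35 and 8.57 in the controls and 8.77, 8.84 and 8.98 after surgery. Gabra3, a subunit of the GABA-A receptor, differed by 0.33, and by 0.16 without control replicate 2, with all 3 surgery arrays at 10.71 and the controls at 10.51, 10.05 and 10.59. Slc12a2, the chloride importer NKCC1, differed by -0.30, and by -0.12 against control replicate 1. Of 20 cholinergic and monoamine receptor genes 16 were higher at a median of 0.10, but 12 at 0.02 against control replicate 1 alone, and the median was 0.03 without control replicate 2. Chrm4 and Htr2a were apart and higher in that list and Chrm3 apart and lower. The CA1 list had a median of 0.06, and of -0.01 without control replicate 2, and the CA2 and CA3 list 0.01, and of -0.02 without control replicate 1, and the dentate granule list -0.03 against all controls, 0.14 with that scaling and 0.30 against control replicate 1.

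Oligodendrocyte genes gave 1 gene apart, Olig2, the transcription factor of that lineage. It stood at 9.39, 9.41 and 9.26 in the controls and at 9.26, 8.99 and 8.85 after surgery (difference -0.33, SE 0.10), the highest surgery array just under the lowest control. The precursor list around it had a median of -0.01, and of 0.14 when arrays were scaled to a common median, against 0.10 over all genes. The myelin list had a median of 0.01, with a range of -0.10 to 0.07 as each array was left out. Sox11, a transcription factor of newborn neurons, differed by 0.25, and 10 of 12 genes of neurogenesis and cycling cells were higher at a median of 0.08, which was 0.05 without surgery replicate 1, 0.13 without control replicate 3 and -0.01 on the deposited signals.

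Genes of RNA processing and energy metabolism were among the lower ones. Srsf5, a splicing factor with serine and arginine repeats, stood at 9.55, 9.35 and 9.40 in the controls and at 9.21, 9.13 and 8.99 after surgery (difference -0.32, SE 0.08, limma adjusted p = 0.612). Srsf6 differed by -0.23, and by -0.13 without control replicate 2, and was apart as well, while Srsf3 and Tra2b, of the same family, were apart and higher by 0.16 each, Tra2b by 0.07 with the mean over its probe sets. The 20 such genes had a median of -0.07, and of 0.00 without control replicate 2. When arrays were scaled to a common median it was 0.10, as was the median of all genes. All 7 measured nuclear long noncoding RNAs lay lower than control replicate 1, and their median was -0.31 against all controls, -0.56 against control replicate 1 alone and -0.17, with 2 of the 7 higher, against control replicates 2 and 3. It was -0.53 without control replicate 3. Gas5, host of small nucleolar RNAs, stood at 9.38, 9.89 and 9.16 and then at 9.20, 9.11 and 8.59, and its difference of -0.51 was -0.09 with the mean over its 4 probe sets. Meg3 stood at 11.49, 11.45 and 10.73 and then at 10.85, 10.998 and 10.90. Control replicate 3 thus lay at or below a surgery array in both.

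Oxidative phosphorylation, the respiratory chain of mitochondria, was higher in 25 of 77 genes at a median of -0.04, and of 0.00 without surgery replicate 3. When arrays were scaled to a common median it was 0.12, against 0.10 over all genes. The groups were apart and lower in 10, which are Atp5e, Atp5g1, Cox8b, Ndufa1, Ndufa12, Ndufb10, Ndufb11, Ndufc1, Ndufv3 and Uqcrfs1, and apart and higher in 2, Cox6a1 (0.30) and Sdha (0.13). Ndufc1, a small subunit of complex I, stood at 9.71, 9.68 and 9.65 in the controls and at 9.49, 9.60 and 9.32 after surgery. Cox8b, a muscle form of a cytochrome oxidase subunit, had the largest difference, -0.53, but -0.15 against control replicate 1. Mitochondrial ribosomal proteins were apart and higher in 4 and apart and lower in 5 of 71, with Mrps21 at -0.27. The 72 cytosolic ribosomal protein genes had no member apart and a median of -0.01, between -0.03 and 0.05 as each array was left out. With that scaling their median was 0.15, against 0.10 over all genes. Proteasome genes were higher in 30 of 38 at a median of 0.03, and of 0.01 without control replicate 2. Besides the immunoproteasome subunits, Psma1, Psmd14 and Psmd5 were apart and higher by 0.19, 0.19 and 0.23, and Psma8 and Psmb1 were apart and lower.

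Among single lower genes, the size often depended on the choice of controls. The rule for naming took the 12 lower genes with the smallest p, a size of at least 0.3 and the groups apart, and their limma adjusted p ran from 0.534 to 0.63. In 6 of them, Ppfibp2, Prkcq, Stra6, Lrriq1, Cldn1 and Wdr72, the difference against control replicate 1 was under 50% of that against all controls. Cldn1, a claudin of epithelial tight junctions, stood at 7.05, 8.03 and 8.61 in the controls and at 6.79, 6.80 and 7.05 after surgery, and Stra6, the receptor that takes up retinol, at 8.45, 9.07 and 9.04 and then at 8.37, 8.29 and 8.31. Both were lowest in control replicate 1, the control with the low choroid plexus score. The other 6 kept more of their difference. Creb5, a transcription factor that binds cyclic AMP response elements, stood at 7.74, 7.78 and 7.66 in the controls and at 7.52, 7.31 and 7.06 after surgery. Scn9a, the voltage-gated sodium channel Nav1.7, stood at 7.38, 7.64 and 7.18 and then at 7.01, 6.82 and 6.80, and Plxnb3, a semaphorin receptor of oligodendrocytes, at 8.64, 8.72 and 8.53 and then at 8.51, 8.14 and 8.18. Fam122a, Fras1 and Srsf5 complete them, at -0.47, -0.28 and -0.44 against control replicate 1.

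The larger differences over all genes were not separate from the choroid plexus list, in which 19 of 20 genes were lower at an unadjusted p under 0.05. Of the 59 genes at least 1.5-fold lower at an unadjusted p under 0.05, control replicate 1 lay at or below the highest surgery array in 52. Of the 13 genes at least 1.5-fold higher, it reached a surgery array in 2. For all genes, control replicate 1 lay below all 3 surgery arrays in 36.6% and above all 3 in 21.4%. In most genes it thus lay at or below the highest surgery array, and the count of 52 is to be read against that. The 12 higher genes named by the same rule, at a limma adjusted p of 0.261 to 0.483, were Acta2, Eapp, Adgrl4, Osmr, Cxcl12, She, Ccdc117, Flt1, Tnfaip3, Pglyrp1, Ifit3 and Robo4. Of these 12, 0 lost 50% or more of the difference against control replicate 1. The rule asked for the groups apart, so control replicate 1 already lay below all surgery arrays in each of the 12. Part of each difference was thus kept by the rule, and the count is no separate test. Eapp, a nuclear protein that binds E2F factors, stood at 9.62, 9.53 and 9.66 in the controls and at 9.93, 9.88 and 9.91 after surgery (difference 0.30, SE 0.05, limma adjusted p = 0.384). Ccdc117, a coiled-coil protein, stood at 7.65, 7.47 and 7.68 and then at 7.95, 8.06 and 8.21.

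**Figure D5:**
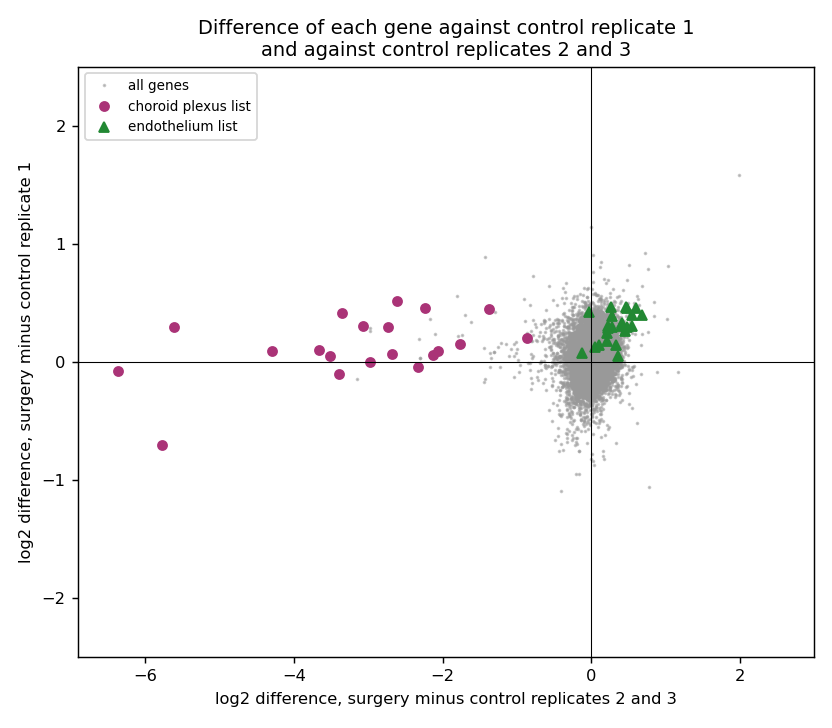
Log2 difference of each of the 18820 genes between surgery and control replicates 2 and 3 (horizontal axis) and between surgery and control replicate 1 (vertical axis), with the choroid plexus list as purple circles and the endothelium list as green triangles. The choroid plexus genes spread to -6.36 along the horizontal axis and run from -0.71 (Ttr) to 0.51 (Otx2) on the vertical one, while 21 of 23 endothelial genes lie above 0 on both axes.

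Leaving out control replicate 1 changed the number of calls more than any other alternative run. Without it 169 genes passed the limma adjusted p, 19 higher and 150 lower, and in 128 of the 150 the omitted array lay at or below the highest surgery array. Over all genes control replicate 1 lay above all surgery arrays in 21.4%. Of the 19 higher ones, 18 had control replicate 1 below all surgery arrays, against 36.6% of all genes. Among these 18 were Adgrl4, Ifit3b, Rgs5, Acta2, Osmr, Flt1, Tnfaip3, Pecam1 and Adgrf5. The 19 and the 150 were called on the same surgery arrays that control replicate 1 was set against. Picking genes by those arrays shifts both counts, so the shares of all genes are no fair baseline and neither count is a separate test. Leaving out any other control or surgery array gave 0 calls. When arrays were scaled to a common median, 12 higher and 25 lower genes were called, 14 of the lower ones of the choroid plexus list, and of the genes at an unadjusted p under 0.05, 78.8% were higher, against 62.8% after quantile normalization and 7.49% on the deposited signals as they stand.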

How the data were processed

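Per the submitters' processing notes, the authors used Affymetrix Expression Console, whose algorithm and version are not given in these sources. The deposited unit is intensity, a linear signal for each of 35556 probe sets on 9 arrays, with array medians from 54.1 to 100.1, so arrays were not scaled alike. The number of arrays, 3 per group, limits the precision.

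Groups came from the sample titles. The 9 arrays were quantile normalized, 16 was added and log2 taken. Of the probe sets, 21218 named 1 gene, and the one with the highest mean stood for each of 18820 genes. Gene names came from a table of the array's annotation, which can be old, and 21185 of these probe sets matched the gene table. limma 3.58.1 in R 4.3.3 fitted 1 mean per group over the 9 arrays, with eBayes and its trend option, and no filter, and was tested on simulated data. Adjusted p-values are Benjamini-Hochberg over all genes. The p-values measure the spread between the arrays of a group.

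The members and gene lists were chosen with earlier results of these data known. Named genes are those passing the adjusted threshold with the groups apart, filled to 12 in each direction by the smallest p (size at least 0.3, mean above the olfactory receptor level, groups apart, no gene models, small RNAs, olfactory, vomeronasal or trace amine receptors or choroid plexus genes), up to 4 of each list by p, a fixed set, and list members with the groups apart. Of the fixed set of 24, 23 were measured. Alternatives were other scalings, constants of 4 and 64, other fits, a filter and each array left out. The counts of list members without single arrays were chosen after seeing the data. Promoters are RefSeq's, with the table's build, GRCm38.p6.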

Additional observations from a re-analysis of the deposited data

How the results depend on the processing

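Calls depended most on the scaling and on control replicate 1. Against 0 called genes after quantile normalization, 37 were called with each array scaled to one median and 42 on the deposited signals as they stand, which also gave 307 genes at an unadjusted p under 0.05 and 690 genes whose groups do not overlap. With each array left out in turn, calls ranged from 0 to 169, genes at an unadjusted p under 0.05 from 700 to 1788, and genes whose groups do not overlap, easier to reach with fewer arrays, from 3455 to 5020. With control replicate 1 as the only control, 10928 genes were apart and the choroid plexus list had a mean difference of 0.13, and with the choroid plexus score as a covariate that mean was 0.00 by construction. With a replicate block 0 genes were called and 869 stood at an unadjusted p under 0.05. Same-numbered arrays deviated in opposite directions (correlations -0.244, -0.157 and -0.15), so the numbers do not pair the samples.

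Of the named genes, these changed sign, and the cause was not tested. When arrays were scaled to a common median, the median of all genes was 0.10 in place of 0.02. There Bsn was at 0.042, Pclo 0.021, Snap25 0.089, Bdnf 0.033, Fos 0.006 and Vegfa 0.158. On the deposited signals, where the median of all genes was -0.02, Il1b was at -0.05, Aif1 -0.047 and Vegfa 0.021. With the covariate Ccl2 was at 0.001, Per1 -0.106, Bdnf 0.064 and Vegfa 0.051. Against control replicate 1 alone Ccl2 was at 0.032, Per1 -0.134, Gad1 -0.001, Bdnf 0.058 and Vegfa 0.074. With array weights Vegfa was at 0.041. With each array left out in turn Aif1 ranged from -0.019 to 0.154, Bdnf from -0.080 to 0.057, Fos from -0.31 to 0.22, Hmox1 from -0.01 to 0.25, Il1b from -0.023 to 0.13, Snap25 from -0.017 to 0.003, Tnf from -0.033 to 0.20 and Vegfa from -0.12 to 0.10. The other 2754 gene values kept their direction and side of the threshold, and 52 passed it in addition.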

Other observations

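Further lists held single genes with the groups apart. Alox5ap, which hands arachidonic acid to 5-lipoxygenase, stood at 7.25, 7.09 and 7.26 in the controls and at 7.39, 7.64 and 7.29 after surgery. The 25 lipid mediator genes had a median of 0.02, between 0.00 and 0.07 as each array was left out. In 2 of them the groups were apart and higher, which is 8.0%, near the 7.7% of all genes. In the hypoxia and glycolysis list 21 of 26 were higher at a median of 0.06, between 0.04 and 0.09 as each array was left out. The groups were apart and higher in 3 of its genes and apart and lower in 1, Pdk1. There the neuronal glucose carrier Slc2a3 stood at 10.15, 10.10 and 10.16 and then at 10.26, 10.19 and 10.35, and Bnip3, a mitophagy receptor that hypoxia induces, differed by 0.16 (SE 0.05). In the Wnt and Notch list 18 of 24 were higher at a median of 0.10, and of 0.07 without control replicate 2, with the ligand Wnt2, the receptor Fzd1 and Ctnnb1, which encodes beta-catenin, apart. Wnt2 differed by 0.21, and by 0.09 against control replicate 1. Crym, a thyroid hormone-binding protein, stood at 11.07, 10.99 and 11.07 in the controls and at 11.23, 11.20 and 11.20 after surgery, while Cyp26b1, which breaks down retinoic acid, differed by -0.20 (SE 0.10). Nos1, the neuronal nitric oxide synthase, stood at 10.06, 9.85 and 10.06 and then at 9.79, 9.73 and 9.88, so that control replicate 2 lay just under one surgery array.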
